A study of Mus musculus with 8 samples.

Results

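The 10 genes described here belong to the Wnt signaling system. They are the ligand genes Wnt5a, Wnt2 and Wnt4, the secreted inhibitor genes Sfrp2, Frzb, Dkk2, Dkk3 and Wif1, and the target genes Axin2 and Lef1. They were chosen by name, so that every row of the deposited expression table carrying one of these symbols was taken, which gave 10 of 54532 genes. The values are FPKM, in which the fragments of a gene are divided by its length and by the size of the library, so levels of different genes can be set side by side per length. Of the 10 genes, 9 had 2 or more libraries with an FPKM of 0.5 or above and were tested along with all others that did, 15708 genes in all. Lef1 did not reach that level.

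The libraries were made to compare the same reprogrammed fibroblasts in an infarcted heart and in a dish. MICFs, the cardiac fibroblasts of infarcted C57BL/6 mouse hearts, were infected with doxycycline-inducible lentiviruses for MGT (Mef2c, Gata4 and Tbx5), Myocd, Sall4 and eGFP, a set named MGTMyoS that all 4 groups carried. For the in vivo samples the cells were injected into left ventricles of mice whose coronary artery had just been ligated, and these mice received doxycycline in their water and daily tacrolimus, mycophenolate mofetil and methylprednisolone. For the in vitro samples the cells stayed in a doxycycline medium with serum, SB431542, which blocks the TGF-β receptor, and baricitinib, which blocks JAK kinases. The eGFP+ cells of both kinds were sorted after 1 week (Day 7) and 2 weeks (Day 14), with 2 libraries in each of the 4 groups. Immunosuppressants were given only to the hosts and the 2 small molecules only to the cultures, so their parts and that of the heart cannot be told apart. The labels do not say which animals or wells a library came from, so the p-values measure the spread between these libraries, which may be technical.

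Wnt proteins are secreted, lipid-modified ligands that bind Frizzled receptors with a co-receptor, either LRP5 or LRP6 in the β-catenin branch or ROR and RYK proteins in β-catenin-independent branches. In the β-catenin branch a bound receptor stops the destruction complex from degrading β-catenin, which then works with TCF and LEF factors to switch on targets such as Axin2, itself a part of the destruction complex. Secreted antagonists act outside the cell, where SFRP family members, FRZB and WIF1 bind Wnt proteins and DKK proteins such as DKK2 bind the LRP co-receptors, and in the injured heart fibroblasts are a known source of several of them.

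The libraries held between 12304242 and 14546904 fragments on genes. The 10 fibroblast markers (among them Col1a1, Pdgfra and Dcn) were all detected in every group, at a summed FPKM of 12450 to 13280 in vivo and 3117 to 3255 in vitro at 1 week, and of 10190 to 11620 and 2134 to 2148 at 2 weeks. The 10 macrophage markers were also present, at 1935 to 3062 in vivo and 4847 to 5944 in vitro over both weeks, although the sort was for eGFP. The paper reports that isolated MICFs held macrophages beside the fibroblasts. In vitro the macrophage sum was above the fibroblast sum in every library. The part of macrophages in the differences below was not tested. The 7 mesothelial markers summed to 13.2 to 31.2 in vivo and 234 to 487 in vitro, the 9 cardiomyocyte markers to 10.5 to 25.8 and 111 to 631, and the 8 tendon and cartilage markers to 313 to 1441 and 6.63 to 11.8. Endothelial markers (8 genes) stood at 63.1 to 88.6 and 12.7 to 44.2, mural markers (7 genes) at 123 to 148 and 123 to 202, lymphocyte markers (6 genes) under 2 in every library and Schwann cell markers (5 genes) under 8. These are bulk samples, in which a change in the number of cells of a type and a change in RNA per cell cannot be told apart.

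At 1 week, 4 of the 9 tested Wnt genes were called higher in vivo and 0 lower, where a call is a limma Benjamini-Hochberg adjusted p under 0.01 with an absolute log2 fold change over 1. By the same rule 12.9% of all tested genes were called, 7.79% as higher and 5.07% as lower. All 4 genes called higher, Sfrp2, Frzb, Dkk2 and Dkk3, were secreted inhibitors. The split at 1 week was 4 higher and 2 lower with quantile normalization, and also without the scaling between libraries. At 2 weeks, 3 were called higher (Sfrp2, Frzb and Dkk3) and 2 lower (Wnt5a and Wif1), beside 17.1% of all tested genes, 9.02% as higher and 8.05% as lower. The median log2 fold change was 0.78 for the 9 genes and -0.01 for all tested genes at 1 week, and 0.32 and -0.00 at 2 weeks.

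**Figure D1:**
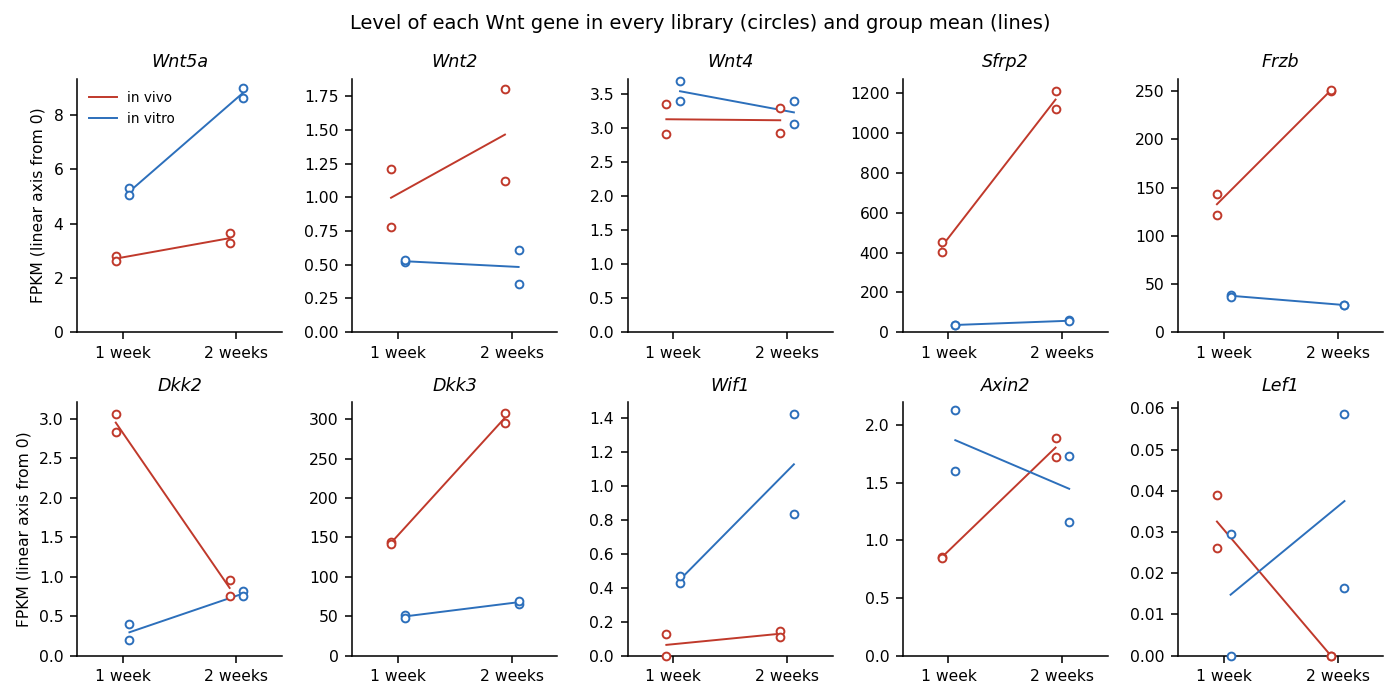
FPKM (linear axes from 0) of each of the 10 Wnt genes against the week, with 1 circle per library (2 per group), red for in vivo and blue for in vitro, and lines joining the group means. Sfrp2, Frzb and Dkk3 stand higher in vivo at both weeks, Wnt5a and Wif1 stand lower, Dkk2 differs at 1 week and meets at 2 weeks, and Lef1 stays under 0.06.

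Among the ligands, Wnt5a, the best known ligand of the β-catenin-independent branch, was the most abundant of the 3 in culture. Its FPKM was 5.32 and 5.05 in vitro at 1 week and 9.02 and 8.65 at 2 weeks. In vivo it was 2.82 and 2.61 at 1 week and 3.66 and 3.28 at 2 weeks. Both in vitro libraries lay above both in vivo libraries at each week. The log2 fold change, in vivo minus in vitro, was -0.91 (SE 0.10) at 1 week, short of the fold threshold with a limma adjusted p of 4.06e-04 (but past it at -1.24 without the scaling between libraries), and -1.33 (SE 0.10) at 2 weeks with a limma adjusted p of 5.62e-05. The weekly differences did not differ past the threshold (interaction -0.42, 95% interval -0.74 to -0.09, limma adjusted p = 0.107). Mesothelial markers were also higher in culture, by more than Wnt5a, which amounted to 19.2% and 19.8% of their summed FPKM in vivo and 2.21% and 2.16% in vitro at 1 week. Their part in the Wnt5a difference was not tested.

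Wnt2, a ligand that mostly acts through β-catenin, ran the other way at a low level. It stood at 1.21 and 0.783 FPKM in vivo against 0.519 and 0.534 in vitro at 1 week, and at 1.81 and 1.12 against 0.609 and 0.359 at 2 weeks. The in vivo libraries were the higher ones at each week, but they rested on 23 to 46 fragments and the in vitro libraries on 11 to 19. Neither difference was called (log2 fold change 0.78, limma adjusted p = 0.115, and 1.42, limma adjusted p = 0.0130), and the second passed the rule with limma's voom on fragments (adjusted p = 0.00932).

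Wnt4, a ligand of epithelial and reproductive tract development, had nearly the same level in all 8 libraries. It stood at 2.91 and 3.35 FPKM in vivo and 3.69 and 3.40 in vitro at 1 week, and at 3.30 and 2.94 in vivo and 3.40 and 3.07 in vitro at 2 weeks. The groups did not overlap at 1 week by a small margin and overlapped at 2 weeks. The log2 difference had a 95% interval of -0.47 to 0.12 in the first and of -0.35 to 0.24 in the second comparison. In this fit the data thus allow at most a small difference at either week. Over the alternatives the log2 difference was -0.508 to -0.078 at 1 week and -0.373 to 0.029 at 2 weeks. The lowest of these values lie outside the intervals, so the bound depends on the processing.

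Sfrp2, which encodes a secreted Frizzled-related protein, was the most abundant of the 10 genes in vivo. Its FPKM was 404 and 455 in vivo at 1 week and 1213 and 1123 at 2 weeks. In vitro it was 38.1 and 34.4 in the first week's libraries, then 59.1 and 55.8. The lowest in vivo library thus lay far above the highest in vitro library, and by mean level Sfrp2 was the 27th most abundant gene of the whole table in vivo at 2 weeks and the 829th in vitro. The ratio of the group means was 11.9 at 1 week and 20.3 at 2 weeks. The log2 fold changes were 3.56 (SE 0.09, limma adjusted p = 9.27e-07) and 4.34 (SE 0.09, limma adjusted p = 4.10e-07), past the rule under all 19 alternative settings tried at each week.

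The 250 bases upstream of the RefSeq start of Sfrp2 (GRCm38.p6, chr3:83766071-83766320, + strand) are shown because this gene had the highest level and the widest difference of the 10. They were searched for the TCF and LEF core CTTTGA on both strands.
Sfrp2: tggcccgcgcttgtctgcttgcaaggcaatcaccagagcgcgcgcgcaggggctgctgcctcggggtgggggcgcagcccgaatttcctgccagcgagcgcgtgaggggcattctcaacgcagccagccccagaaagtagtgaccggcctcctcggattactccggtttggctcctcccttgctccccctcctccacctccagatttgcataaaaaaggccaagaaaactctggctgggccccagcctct
The window holds no such core. Of all 32851 RefSeq promoter windows of this length, 13.8% hold one or more, and 8 of the 10 genes had a window to search.

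Frzb (also named Sfrp3), a further secreted Frizzled-related protein known from cartilage and the heart, moved apart between the conditions over time. It stood at 122 and 144 FPKM in vivo and 38.7 and 36.9 in vitro at 1 week. At 2 weeks it stood at 250.2 and 252 in vivo and 28.5 and 27.8 in vitro. The in vivo libraries were above the in vitro libraries at each week, and the means went up in the heart while they went down in the dish. The log2 fold change was 1.80 at 1 week (SE 0.08, limma adjusted p = 9.88e-06) and 3.15 at 2 weeks (SE 0.08, limma adjusted p = 9.47e-07).

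Among the 11 windows found for the 8 genes, 2 hold the core, 1 of Frzb and 1 of 4 for Lef1. The Frzb match is shown with its flanks as 30 bases (GRCm38.p6, chr2:80447474-80447503, - strand, core in capitals). It lies 95 bases upstream of the RefSeq start and inside the span of the gene in the deposited annotation, whose upstream end is at chr2:80447625.
Frzb: tcccctgaaaacTCAAAGccttctcggaag
The match is a stretch of letters, read here on the strand opposite to CTTTGA, and no binding was measured.

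Dkk3, a divergent Dickkopf family member that is not known to bind the LRP co-receptors as DKK2 does and is placed among the inhibitors by its family, was the most abundant of the 10 genes in vitro. Its FPKM was 144 and 142 in vivo and 51.5 and 48.0 in vitro at 1 week, and 295 and 309 in vivo and 66.1 and 69.5 in vitro at 2 weeks. Levels in the heart were higher at both weeks with no overlap, by a log2 fold change of 1.52 (SE 0.06, limma adjusted p = 5.79e-06) and of 2.15 (SE 0.06, limma adjusted p = 1.13e-06). Both passed the rule under all 19 alternative settings.

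Of the 10 fibroblast markers, 6 were called higher in vivo at each week (60.0%, beside 12.9% and 17.1% of all tested genes). These were the matrix genes Col1a1, Col1a2, Col3a1, Dcn, Lum and Postn. Pdgfra, Tcf21, Thy1 and Ddr2 were not called at either week. The 3 abundant inhibitors differed in how they stood to the summed FPKM of all 10 markers, in which the most abundant markers weigh most. Sfrp2 amounted to 3.25% and 3.43% of the summed FPKM of the 10 fibroblast markers in vivo at 1 week and to 1.17% and 1.10% in vitro, and to 10.4% and 11.0% against 2.75% and 2.61% at 2 weeks. Sfrp2 was therefore higher in vivo also relative to these markers at both weeks. Frzb was not higher relative to them at 1 week, at 0.979% and 1.08% in vivo and 1.19% and 1.18% in vitro, and was higher at 2 weeks, at 2.15% and 2.47% against 1.33% and 1.30%. Dkk3 was lower relative to them in vivo at both weeks, at 1.16% and 1.07% against 1.58% and 1.54% at 1 week and at 2.54% and 3.03% against 3.08% and 3.26% at 2 weeks. Tendon and cartilage markers stood higher in vivo by more than any of the 3 inhibitors. The part of either marker list in these differences was not tested.

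**Figure D2:**
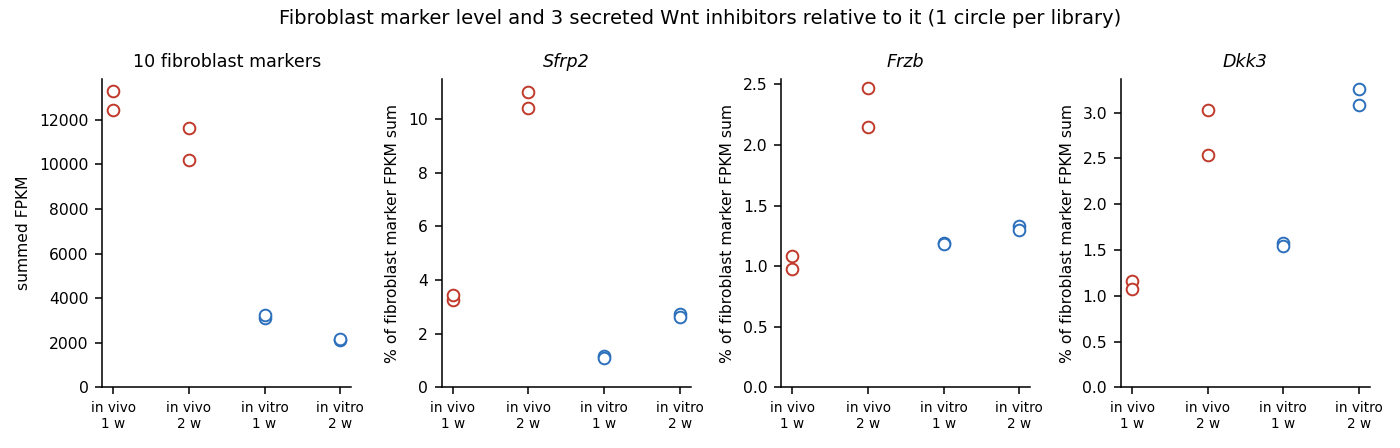
Summed FPKM of 10 fibroblast markers (first panel) and Sfrp2, Frzb and Dkk3 as a percentage of that sum (other panels) by group, with 1 circle per library, red for in vivo and blue for in vitro. The marker sum is 10190 or more in vivo and 3255 or less in vitro, and relative to it only Sfrp2 of the 3 is higher in vivo at both weeks.

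Dkk2, a Dickkopf family inhibitor of the LRP co-receptors, differed at 1 week and overlapped at 2 weeks. It stood at 3.07 and 2.84 FPKM in vivo and 0.193 and 0.398 in vitro at 1 week, the latter from 11 and 22 fragments. At 2 weeks it stood at 0.956 and 0.758 in vivo and 0.820 and 0.754 in vitro. The log2 fold change was 3.0 at 1 week (SE 0.29, limma adjusted p = 2.52e-04) and 0.10 at 2 weeks (95% interval -0.58 to 0.79, limma adjusted p = 0.799). Relative to the fibroblast markers, Dkk2 was 0.0246% and 0.0214% in vivo against 0.00592% and 0.0128% in vitro at 1 week, and 0.00823% and 0.00743% against 0.0382% and 0.0353% at 2 weeks, which turns the order of the conditions between the weeks.

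Wif1, a secreted Wnt-binding protein, was near the limit of detection in vivo. It had 0 and 4 fragments in vivo at 1 week and 4 and 3 at 2 weeks, that is 0 and 0.127 FPKM and then 0.146 and 0.112. In vitro it stood at 0.428 and 0.469 FPKM at 1 week and 0.834 and 1.42 at 2 weeks, from 16 to 47 fragments. The in vitro libraries were higher at each week. The difference was called at 2 weeks (log2 fold change -2.39, SE 0.51, limma adjusted p = 0.00778) but not at 1 week (-1.86, limma adjusted p = 0.0248). Only the 2 in vitro libraries of 2 weeks reached the FPKM of 0.5 needed for the test. Wif1 thus entered the test through the group where it was high, and the call cannot stand as independent support. Without either of these libraries, or with an FPKM minimum of 1, Wif1 was not tested. The size of the difference depends on the pseudocount since the in vivo level is that of a few fragments. The call at 2 weeks was lost under 8 of 16 alternatives, among them leaving out either in vivo library of 2 weeks (limma adjusted p = 0.0247 and 0.0322) or either in vitro library of 1 week (0.0182 in each case).

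The target Axin2, which is induced by β-catenin in many cell types and feeds back on it, was lower in the heart at 1 week. Its FPKM was 0.853 and 0.850 in vivo and 2.14 and 1.61 in vitro. At 2 weeks it was 1.72 and 1.89 in vivo and 1.73 and 1.16 in vitro. The groups were apart at 1 week and overlapped at 2 weeks. The log2 fold change at 1 week was -1.04 (SE 0.23) with a limma adjusted p of 0.0103, just outside the rule, and 7 of 19 alternatives brought it inside. At 2 weeks it was 0.32 (95% interval -0.22 to 0.87, limma adjusted p = 0.279).

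The window upstream of the Axin2 start (RefSeq, GRCm38.p6, chr11:108920099-108920348, + strand) is shown because Axin2 is the target with a measurable level here.
Axin2: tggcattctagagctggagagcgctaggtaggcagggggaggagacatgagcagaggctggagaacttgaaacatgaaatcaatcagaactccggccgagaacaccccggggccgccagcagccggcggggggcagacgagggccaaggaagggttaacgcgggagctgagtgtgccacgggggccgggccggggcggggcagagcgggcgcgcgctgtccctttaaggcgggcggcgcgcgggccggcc
These letters hold no CTTTGA on either strand, which says nothing of sites elsewhere in the gene.

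Lef1, the gene of a TCF and LEF family transcription factor that is itself a target in some cells, was at the floor of the assay. Its libraries held 4 and 3 fragments in vivo and 4 and 0 in vitro at 1 week, and 0 and 0 in vivo and 2 and 7 in vitro at 2 weeks, 20 fragments in all. A count of 0 allows up to 3 fragments, which is 0.0222 to 0.0309 FPKM for this gene. No difference was detectable at this depth, and these limits cover counting error only.

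**Figure D3:**
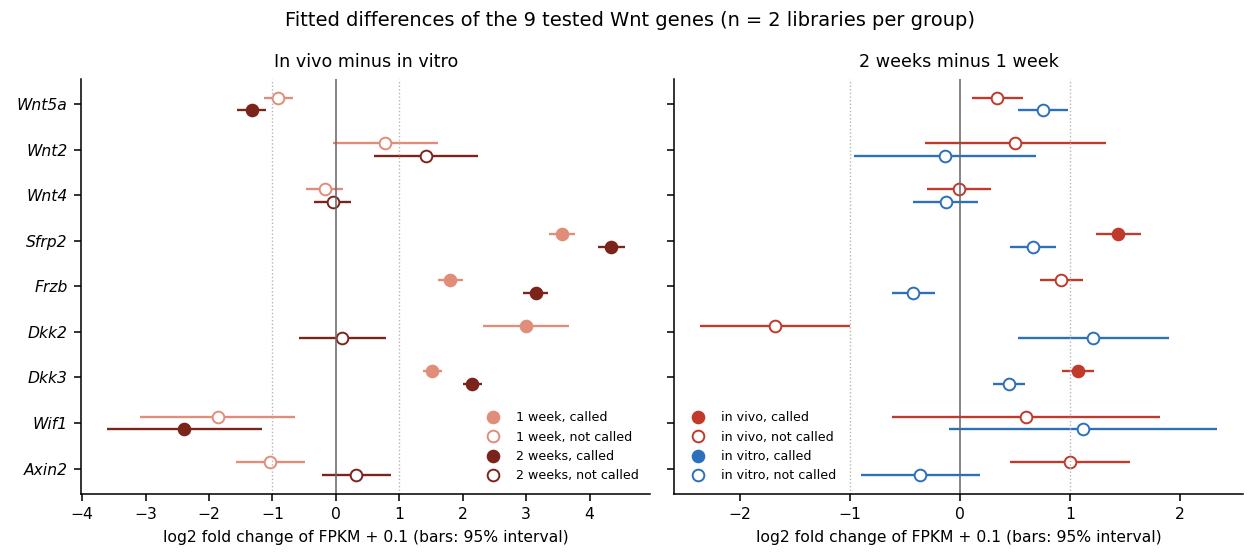
Fitted log2 fold changes of FPKM + 0.1 for the 9 tested genes, in vivo minus in vitro at each week (left) and 2 weeks minus 1 week in each condition (right), with 95% intervals as bars and filled points for calls. Sfrp2, Frzb and Dkk3 are filled on the right of the left panel at both weeks, Dkk2 at 1 week only, and the in vitro column of the right panel has no filled point.

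From 1 to 2 weeks in vivo, 2 of the 9 genes were called higher, Sfrp2 (log2 fold change 1.44, SE 0.09, limma adjusted p = 6.79e-04) and Dkk3 (1.08, SE 0.06, limma adjusted p = 5.40e-04), and 0 lower, where 2.18% of all tested genes were called, 1.23% as higher and 0.949% as lower. Quantile normalization gave 0.77 for Dkk3, short of the fold threshold, and was the only alternative that lost this call. Frzb was short of the fold threshold (0.92, limma adjusted p = 0.00142), and without the second in vivo library of 1 week it was past it (1.04). The log2 fold change was -1.68 for Dkk2 and 1.00 for Axin2, neither past the threshold (limma adjusted p = 0.0121 and 0.0299). For Axin2 both libraries of 2 weeks lay above both of 1 week. Summed over the 14 listed secreted inhibitors, the FPKM was 981 and 1087 at 1 week and 2065 and 1940 at 2 weeks in vivo, of which the 5 inhibitor genes described above gave 673 and 744, then 1759 and 1684. Of the marker sums in vivo over the same weeks, that of fibroblasts was 12450 to 13280 and then 10190 to 11620, that of tendon and cartilage 313 to 398 and then 1402 to 1441, and that of mesothelium 13.2 to 14.7 and then 30.9 to 31.2. Their part in these changes was not tested.

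From 1 to 2 weeks in vitro, 0 of the 9 genes were called by limma, where 3.81% of all tested genes were called (2.76% higher and 1.05% lower), although 5 had an unadjusted p under 0.05 and voom on the fragments also called 0. Wnt5a (0.76, limma adjusted p = 0.00284), Sfrp2 (0.66, limma adjusted p = 0.00319) and Dkk3 (0.45, limma adjusted p = 0.00369) stood higher by less than the fold threshold. The log2 fold change was -0.42 for Frzb and 1.22 for Dkk2, with limma adjusted p of 0.0126 and 0.0241.

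The difference between the conditions was itself compared between the weeks by an interaction contrast. It was called for 2 of the 9 genes, beside 1.73% of all tested genes (0.573% higher and 1.15% lower). For Frzb the difference grew by 1.35 (SE 0.12, limma adjusted p = 0.00338) and for Dkk2 it changed by -2.90 (SE 0.41, limma adjusted p = 0.00926). Both calls are near the threshold, and a fit with no intensity trend lost both (limma adjusted p = 0.0141 and 0.0213). A fit with a replicate block also lost both (limma adjusted p = 0.0109 and 0.0234), and it called 0.172% of all tested genes. Leaving out 1 library in turn gave limma adjusted p of up to 0.0176 for Frzb, whose call was lost without the first in vivo library of 1 week or without any of the 4 in vitro libraries, and of 0.0127 to 0.0446 for Dkk2, whose call was lost without any of the 8. The interaction was 0.78 for Sfrp2 (limma adjusted p = 0.0133), 0.63 for Dkk3 (0.00859, under the fold threshold) and 1.36 for Axin2 (0.0458).

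The amounts of ligand and inhibitor transcript can be set against each other per length. The ratio of Sfrp2 to Wnt5a FPKM was 144 and 175 in vivo and 7.17 and 6.81 in vitro at 1 week, and 332 and 343 against 6.55 and 6.45 at 2 weeks. The ratio thus rested near one value in the dish and was higher in every heart library. All 19 listed ligands together gave 28.5 and 33.8 FPKM in vivo and 19.6 and 17.2 in vitro at 1 week, and 49.8 and 49.9 against 27.6 and 26.3 at 2 weeks. Wnt5a, Wnt2 and Wnt4 made up 24.4% and 20.0% of that ligand sum in vivo and 48.7% and 52.3% in vitro at 1 week. At 2 weeks they made up 17.6% and 14.7% in vivo and 47.2% and 46.0% in vitro. By this sum other Wnt genes gave most ligand transcript in every library but the second in vitro library of 1 week, and their share was larger in the heart.

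The wider pathway was described with a list of 107 genes in 12 roles, of which the 10 genes are part and 80 were tested. At 1 week 14 were called higher in vivo and 6 lower, and at 2 weeks 18 and 7, which is 25% and 31.2% of the list beside 12.9% and 17.1% of all tested genes. Without the 9 tested genes above, the 71 others gave 10 higher and 6 lower, then 15 and 5, or 22.5% and 28.2%. These shares are a description, since the list was not tested as a set and was chosen with earlier results of these data known. Some called genes entered the test only through the side where they were high. Wnt7a reached the FPKM minimum only in vitro, and Wnt10b, Fzd9 and Ndp reached it only in vivo. The median log2 fold change over the list was 0.18 at 1 week and 0.22 at 2 weeks, beside -0.01 and -0.00 for all tested genes. From 1 to 2 weeks, 6 were called higher and 0 lower in vivo (7.5% of the list beside 2.18% of all tested genes), and 2 higher and 1 lower in vitro (3.75% beside 3.81%). On FPKM without the scaling between libraries the split of the list at 1 week was 12 higher and 12 lower.

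The list is taken here by role, with each count beside the 12.9% and 17.1% of all tested genes called at 1 and 2 weeks. As above, this describes a list that was chosen with earlier results known. Of 9 tested ligands 3 were higher and 1 lower at 1 week, then 4 and 2, or 44.4% and 66.7%. Wnt11, a β-catenin-independent ligand of heart development, stood at 10.4 and 12.3 FPKM in vivo and 3.72 and 2.64 in vitro at 1 week (log2 fold change 1.82, limma adjusted p = 2.21e-04), and was higher at 2 weeks also (1.43, limma adjusted p = 5.33e-04). Wnt9a went from 6.36 and 9.02 to 16.7 and 17.4 FPKM in vivo and was called at 2 weeks (1.71, limma adjusted p = 2.49e-04). Wnt10b, an inhibitor of fat cell formation, was at 4.92 and 3.43 FPKM in vivo at 2 weeks and at 2 and 3 fragments in vitro. Wnt7a, an epithelial ligand, went the other way, with 0 fragments in both in vivo libraries of 2 weeks and 0.684 and 0.765 FPKM in vitro, at least 8.55-fold higher against a floor of 3 fragments in each library. Like Wnt5a, it was higher in the cultures that had the higher mesothelial markers.

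Of the 8 tested secreted inhibitors, 5 were higher and 1 lower at 1 week, then 5 and 2, or 75.0% and 87.5%, and 5 of the 8 are among the 10 chosen genes. Sfrp1, of the same family as Sfrp2, was at 306 and 342 FPKM in vivo and 16.0 and 14.9 in vitro at 1 week and at 303 and 253 against 15.2 and 15.2 at 2 weeks, a log2 fold change of 4.38 and 4.18 (limma adjusted p = 6.19e-07 and 6.87e-07). From 1 to 2 weeks in vivo its log2 fold change was -0.22 (95% interval -0.46 to 0.01, limma adjusted p = 0.169), beside 1.44 for Sfrp2. Beside Wif1, Sfrp5 was higher in culture, at 3.28 and 3.35 FPKM against 0.225 and 0.202 in vivo at 1 week and 11.95 and 11.8 against 0.560 and 0.810 at 2 weeks (-3.45 and -3.95, limma adjusted p = 1.72e-05 and 7.50e-06). Of the 3 membrane inhibitors, Apcdd1 was called at 2 weeks (1.13) and Kremen1, a DKK receptor, stayed just under the fold threshold (0.77 and 0.99).

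Of the 3 tested agonists, Rspo1, an R-spondin that amplifies Wnt signaling by keeping Frizzled on the membrane, was the more abundant in culture. It stood at 2.07 and 1.90 FPKM in vivo and 35.8 and 31.9 in vitro at 1 week and at 3.93 and 5.19 against 50.03 and 51.4 at 2 weeks (-4.02 and -3.46, limma adjusted p = 2.43e-06 and 3.64e-06). Rspo3 differed little (-0.03 and 0.38, limma adjusted p = 0.883 and 0.0440). Ndp, whose product activates Frizzled-4, had 0 fragments in both in vitro libraries of 1 week and was at least 5.71-fold higher in vivo by the same floor, from 13 and 15 fragments.

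Receptors were the largest tested role, and of 17 tested 3 were higher and 0 lower at 1 week, then 5 and 0, or 17.6% and 29.4%, the former near the share of all genes. Ror2, a receptor of Wnt5a, was at 10.9 and 10.6 FPKM in vivo against 2.68 and 3.11 in vitro at 1 week (1.86, limma adjusted p = 1.64e-05) and at 8.31 and 8.11 against 2.03 and 1.99 at 2 weeks (1.98, limma adjusted p = 9.82e-06), opposite to its ligand. Fzd9 was at 1.04 and 1.47 FPKM in vivo at 1 week and 3.05 and 2.92 at 2 weeks, with 1 to 5 fragments in each in vitro library. The abundant receptors Fzd1 and Ryk were not called at either week, with log2 fold changes of -0.08 and 0.62 for Fzd1 and -0.17 and 0.05 for Ryk. In both conditions Wls, needed to secrete Wnt ligands, was within 34.7 to 47.1 FPKM and was not called, nor was Porcn, which attaches their lipid.

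The destruction complex, transducers, transcription factors and corepressors were taken next. Among the 9 genes of the destruction complex, Apc2 was lower at 1 week (-1.28, limma adjusted p = 0.00922), while Csnk1a1 and Gsk3a had log2 fold changes of 0.02 to 0.16. None of the 9 transducers was called, and Ctnnb1, the gene of β-catenin, stood at 80.5 to 110 FPKM in all libraries with log2 fold changes of 0.25 and 0.34. Dvl1, of the Dishevelled family, was at 0.97 at 2 weeks, just under the fold threshold. Of the transcription factors, Tcf7l1 (-0.04 and -0.00) and Tcf7l2 (-0.22 and 0.18) were the most abundant and neither was called. Of the corepressors Tle3 and Tle4, Tle4 was at -0.94 at 2 weeks, also short of the fold threshold.

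The tested targets split. Of 10, 2 were higher and 1 lower at 1 week and 4 and 1 at 2 weeks, or 30% and 50%. Wisp2, a matrix protein of the CCN family, was the most abundant, at 493 and 555 FPKM in vivo and 284 and 243 in vitro at 1 week (0.99, short of the fold threshold) and 1012 and 1045 against 151 and 186 at 2 weeks (2.62, limma adjusted p = 9.34e-06). Wisp1 of the same family was at 2.38 and 2.73, and Nkd2, a Dishevelled-binding inhibitor, at 3.06 and 3.998, all called. Myc (0.86 and 0.54) was not called and Ccnd1, named because it was the target called lower, was at -1.41 and -1.55. Of the 7 planar polarity genes, Celsr1 was lower at both weeks (-1.82 and -2.36, limma adjusted p = 0.00969 and 0.00250), from 10 to 25 fragments in vivo, and Daam1 (-0.69 and -0.45) and Prickle1 (-0.03 and 0.06) were not called.

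**Figure D4:**
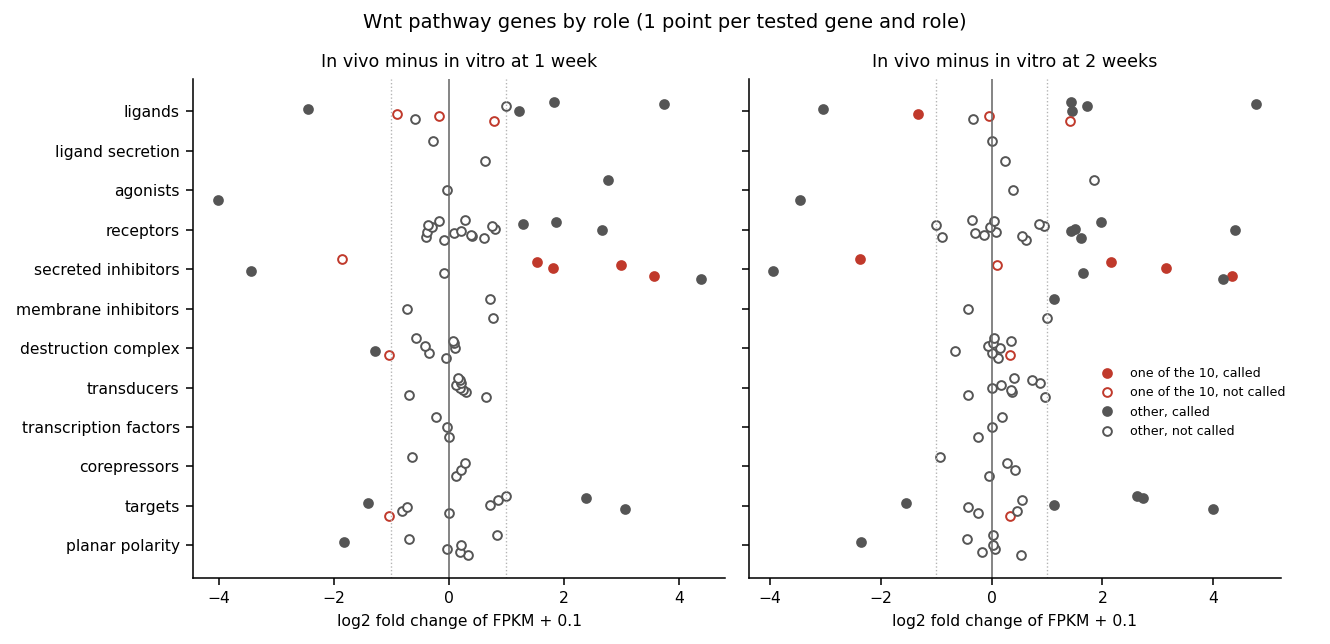
Log2 fold change of FPKM + 0.1, in vivo minus in vitro, at 1 week (left) and 2 weeks (right) for the tested pathway genes by role, with 1 point per gene and role, red for the 10 chosen genes and grey for others, and filled points for calls. The filled points gather in the ligand, agonist, receptor, secreted inhibitor and target rows, and the transducer, transcription factor and corepressor rows have none.

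The genes whose pattern over the 8 libraries was most like each of these genes were sought among the 11437 tested protein-coding genes whose FPKM averaged 1 or more. The measure was Pearson's r on the log2 scale, given as a description, since the libraries form 4 groups and share their scaling. Wnt5a was most like Krt8 (r = 0.999) and Krt7 (r = 0.998), keratins of simple epithelia and mesothelium. Sfrp2 was most like Scarf2 and Eln (both r = 0.999), the latter encoding elastin. Frzb was most like Cabin1 (r = 0.9996) and Fzd9 (r = 0.998), the latter a receptor of the same pathway. The measure takes no account of the size of a change. Group means of Cabin1 ran only from 4.53 to 5.74 FPKM, beside 28.2 to 251 for Frzb. Dkk3 was most like Serping1 (r = 0.998) and Pam (r = 0.996), Dkk2 most like Abcg1 (r = 0.978) and Aoc3 (r = 0.97), and Axin2 most like Zfyve9 (r = 0.973) and Tbxa2r (r = 0.960). The nearest genes were Traf2 and Dok4 for Wnt2 (r = 0.992 and 0.984), Tmem184c and Fn3krp for Wnt4 (r = 0.963 and 0.916) and Pmvk and Pepd for Wif1 (r = 0.986 and 0.983). For Lef1 they were Rhod and Ppia (r = 0.950 and 0.949), and with so few fragments this is no finding.

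By position on GRCm38, Wnt5a lies at chr14:28504750-28527448, Sfrp2 at chr3:83766321-83774316, Frzb at chr2:80411970-80447625, Dkk2 at chr3:132085292-132180304, Dkk3 at chr7:112116017-112159057 and Axin2 at chr11:108920349-108950783. Wnt5a, Sfrp2 and Axin2 each overlap 1 antisense gene, with mean FPKM of 0.0607, 0.0558 and 0.0724 for these. Whether the counting used strand is not given in the sources used here, so reads of a gene and its antisense partner may not have been told apart.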

How the data were processed

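RNA of sorted eGFP+ cells was sequenced by the SMARTer method in 8 libraries, 2 in each of 4 groups. The authors deposited 1 table of FPKM values, and per the submitters' processing notes reads went through CASAVA and HISAT2 2.0.5 on mm10, while the counting tool is not given in the sources used here. Multiplied by gene length, 100.0% of the FPKM above 0 fell on whole steps of 1 fragment, which gave the fragments behind each value. The tolerance was 0.02 fragments and grew with the count for genes of many fragments, so for the most abundant genes this check says little. The library size behind the FPKM was 0.863 to 0.915 times the fragments in vivo and 1.09 to 1.15 times in vitro, so the deposited values hold a scaling between libraries.

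Values were compared as log2(FPKM + 0.1), a scale that understates changes of low genes, by limma 3.58.1 in R 4.3.3 with an intensity trend and all 8 libraries in 1 fit of 4 groups. A gene entered the test if 2 or more libraries had an FPKM of 0.5 or above, p-values were adjusted over all 15708 of them, and a call needed an adjusted p under 0.01 with a log2 fold change beyond 1 in size. The fit was also run on simulated data, with large changes put into 200 well expressed genes of the in vivo group of 1 week. That run does not cover genes of few fragments or calls near the threshold. The study's DESeq2 needs counts and was not repeated. Gene identifiers were matched to GENCODE vM21, where 98.3% of 54495 shared identifiers had the same start and end. Other tools were Python 3.11.15, numpy 2.4.6, pandas 2.3.3 and matplotlib 3.10.9.

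The genes and lists were chosen with earlier results of these data known. Named were the 10 genes, for each pathway role the 2 tested genes of highest mean FPKM and the 2 called with the largest change in vivo against in vitro, and the 2 genes most like each of the 10. Alternatives changed the pseudocount, the FPKM minimum, the scaling, the model and the threshold, added a replicate block, and left out each library in turn.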

Additional observations from a re-analysis of the deposited data

Results flagged for a closer look

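The interaction contrast called 1.73% of all tested genes and 5 of the 80 tested Wnt pathway genes (6.25%). In these 5 the difference between the conditions itself changed from 1 to 2 weeks. These were Dkk2 (-2.90, SE 0.41, limma adjusted p = 0.00926), Frzb (1.35, SE 0.12, limma adjusted p = 0.00338), the receptor gene Fzd8 (1.23, SE 0.16, limma adjusted p = 0.00663) and the targets Nkd1 (1.26, SE 0.09, limma adjusted p = 0.00238) and Wisp2 (1.62, SE 0.18, limma adjusted p = 0.00494). For Fzd8 the in vivo minus in vitro log2 difference was 0.21 at 1 week and 1.44 at 2 weeks. For Nkd1, an inhibitor that β-catenin induces, it went from -0.81 to 0.45, with an FPKM of 5.72 and 5.69 and then 9.43 and 9.52 in vivo, and of 10.1 and 10.1 and then 6.88 and 6.94 in vitro. The interaction of Axin2 missed the threshold (1.36, limma adjusted p = 0.0458). Fzd8 and Nkd1 were named after their values were seen. With no intensity trend the interaction called 1 gene of the list, beside 0.452% of all tested genes. With a replicate block it called 0 of the list, beside 0.172%. With any 1 library left out it called fewer genes of the list, and fewer of all tested genes.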

How the results depend on the processing

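Over 45 results of single genes and up to 19 alternatives each, 829 values in all, 758 kept direction and side of the threshold, 28 lost a call, 31 gained one and 12 changed sign. The calls of Sfrp2, Frzb and Dkk3 in vivo against in vitro held in every alternative at both weeks, as did that of Dkk2 at 1 week and that of Wnt5a at 2 weeks. With an adjusted p under 0.05 and no minimum fold, the 9 genes had 7 calls at 1 week, 5 over the weeks in vivo, 5 in vitro and 5 for the interaction, and the pathway list had 50, 49, 25, 27 and 17 calls in the order of the comparisons, beside 42.0%, 49.8%, 15.8%, 25.1% and 9.92% of all tested genes. The interaction called 1 of the 9 genes with a pseudocount of 0.01, beside 1.58% of all tested genes, and 1 with no minimum FPKM, beside 0.257%. With no intensity trend it called 0 of the 9, beside 0.452%. Of the pathway list it called 2 with no minimum FPKM and 1 with no trend. Over the weeks in vivo the list had 3 calls with no trend, beside 1.68% of all tested genes. In a fit of the in vivo libraries alone it had 2, beside 0.392%.

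Leaving out a library leaves 1 in its group. For the interaction and over the weeks in vivo, fewer genes of the list were then called, and fewer of all tested genes. Over the weeks in vitro the same held when an in vitro library was left out. The Dkk2 interaction was -3.278 to -2.513 with each library left out in turn. Differences near 0 changed sign. Wnt4 gave -0.132 to 0.029 in vivo against in vitro at 2 weeks, and as low as -0.373 over all alternatives. Over the weeks in vivo Wnt4 gave -0.103 to 0.092 (0.0009 with quantile normalization). Wnt2 gave -0.45 to 0.179 over the weeks in vitro. Dkk2 gave -0.047 to 0.253 at 2 weeks (-0.011 with quantile normalization and -0.193 without the scaling). The Wif1 interaction gave -1.11 to 0.069, 0.636 with a pseudocount of 0.01 and 0.268 with voom. The causes were not tested.

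Over all tested genes, deviations of same-numbered libraries correlated at -0.048 to -0.011. This cannot exclude that the replicate numbers pair the samples, since the labels do not give the origin of a library. With a replicate block the interaction called 0 of the 9 genes and 0 of the list, and 27 of all genes in place of 271. The interaction calls it lost among the 9 were those of Frzb and Dkk2 (limma adjusted p = 0.0109 and 0.0234). In vivo against in vitro at 2 weeks, the block lost the call of Wif1 (limma adjusted p = 0.0104) and called Wnt2 (0.00756). It changed no other call of the 9 genes. Without the scaling between libraries the median of all genes moved to -0.34 and -0.33, and 36.7% and 32.9% of the calls were higher in vivo in place of 60.6% and 52.8%. Replicates differed beyond counting error, at a chi-square of 4.25 to 9.22 per gene. Wif1, Wnt2, Dkk2 in vitro and Lef1 rest on few fragments, which limits their precision.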
